A study of Rattus norvegicus with 10 samples.

Results

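A list of 38 genes of macrophages, microglia and antigen presentation by MHC class II was followed in the neurointermediate lobe of the rat pituitary after water deprivation. A member was read at a probe set that the platform annotation pairs with its symbol and no other, taking the brightest such probe set by mean signal over all arrays. Of the 38 genes, 37 had such a probe set, out of 14217 genes on the array, and Spi1 had none. After a filter that removed dim probe sets without regard to group, 32 of the 37 were tested, among 10593 genes and 18625 probe sets in all. The 5 members below the filter were Cx3cr1, Itgam, Cd163, Trem2 and Ncf1.

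The study compared male Sprague Dawley rats aged 10 to 12 weeks that had been dehydrated for 3 days with control rats of the same sex, strain and age. Each group had 5 Affymetrix Rat Genome 230 2.0 arrays, and an array carried amplified RNA from 1 pool of 5 animals, with no animal shared between pools according to the series' design text. That text names the supraoptic nucleus, whereas the series title and the labels of all arrays give the neurointermediate lobe, which is taken as the tissue here. Whole lobes were dissected, so a signal sums over all cell types, and fewer cells of a type cannot be told apart from less RNA per cell.

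Macrophages and microglia are the resident phagocytes of nervous and endocrine tissue. They depend on colony-stimulating factor signals through Csf1r, take up antibody-coated and complement-coated material through Fc receptors and C1q, and sense microbial and damage products through Toll-like receptors and Cd14. MHC class II molecules are pairs of an alpha and a beta chain that are assembled on the invariant chain Cd74 and loaded with peptide after Ctss, the protease cathepsin S, has cut the invariant chain away. In the rat the class II genes are RT1-Da and RT1-Db1 for 1 pair and RT1-Ba and RT1-Bb for the other. In the neural lobe such cells lie around capillaries and among the endings of vasopressin and oxytocin axons.

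Class II promoters share a Y box, bound by NF-Y, and an X box, bound by the RFX complex, on which the coactivator Ciita assembles. The stretches before the starts of the 4 class II chain genes are shown because these genes are described together below. Sequences are from RefSeq, build GRCr8, which held promoters for 28 of the 38 members, and each is written 5′ to 3′ on the gene's own strand and ends at the base before the start. Capitals mark the Y box, CTGATTGG, and, upstream of it, the X box where it matched the form searched. Other forms of the X box were not searched, so an unmarked stretch may still hold one. The stretches lie at chr20:4515305-4515414 (plus strand, RT1-Da), chr20:4560163-4560272 (minus strand, RT1-Db1), chr20:4576947-4577056 (plus strand, RT1-Ba) and chr20:4604119-4604228 (minus strand, RT1-Bb).
RT1-Da: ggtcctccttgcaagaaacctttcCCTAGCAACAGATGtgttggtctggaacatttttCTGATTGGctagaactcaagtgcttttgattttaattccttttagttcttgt
RT1-Db1: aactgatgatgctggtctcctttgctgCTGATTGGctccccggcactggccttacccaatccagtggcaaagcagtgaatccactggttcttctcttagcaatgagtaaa
RT1-Ba: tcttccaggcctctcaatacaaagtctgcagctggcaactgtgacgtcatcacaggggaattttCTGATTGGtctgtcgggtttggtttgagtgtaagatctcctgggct
RT1-Bb: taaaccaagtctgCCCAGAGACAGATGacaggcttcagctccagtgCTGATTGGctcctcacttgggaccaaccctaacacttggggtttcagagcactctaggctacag
All 4 stretches held the Y box, at 83 to 46 bases before the start by its first base, and RT1-Da and RT1-Bb also held the X box in the form searched. On either strand, the Y box was found in 3.19% and the X box in 0.206% of 33465 promoters, searched over the 250 bases before the start, a longer window than the stretches shown. All motif shares and counts of members refer to that window. Members were counted as genes, whereas the shares count promoter entries, of which a gene may have several. Of the 28 members with a promoter, the only other one with this Y box was Cd68.

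The stretches before Cd14 and Ctss are shown because these genes had the lowest adjusted p among the members. Capitals mark GAGGAAG, a motif of the macrophage factor PU.1, the product of Spi1, on either strand. In Ctss they also mark the interferon response motif, a pair of GAAA blocks with a spacer, which does not overlap the PU.1 motif there. The stretches lie at chr18:28611159-28611308 (minus strand, Cd14) and chr2:185775316-185775395 (plus strand, Ctss).
Cd14: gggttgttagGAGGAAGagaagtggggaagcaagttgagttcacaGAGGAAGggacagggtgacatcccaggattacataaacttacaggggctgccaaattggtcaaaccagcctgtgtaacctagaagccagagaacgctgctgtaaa
Ctss: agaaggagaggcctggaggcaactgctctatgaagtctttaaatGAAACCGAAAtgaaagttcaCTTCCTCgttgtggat
Cd14 held the PU.1 motif at 140 and 105 bases and Ctss at 16 bases before the start. The motif was present in 10 of the 28 members and in 10.2% of all promoters, and the interferon response motif in 4 of the 28 members and in 3.41% of all promoters. A match is a description of the sequence and does not show binding.

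Values are signals on the linear scale to which the authors had scaled every array, and changes are log2(signal + 5) in the dehydrated minus the control group. They were fitted with limma across all tested probe sets, and a gene was called at a Benjamini-Hochberg adjusted p under 0.05. The 10 arrays had median signals of 35.7 to 39.6, and precision is limited by the small number of arrays. RNA shortening was read from the control probe sets of GAPDH and beta-actin, as their 3′ over 5′ signal (log2, averaged, called the RNA ratio below), which was 2.15 ± 0.38 in the dehydrated group and 1.78 ± 0.48 in controls (SD, n = 5 each; exact two-sided permutation p = 0.214, smallest possible 0.00794). Dehydrated 5 had the lowest ratio of its group, 1.61, and control 1 the highest of its group, 2.52. With both arrays left out, a setting used below, the ratios were 2.05 to 2.67 in the dehydrated group and 1.26 to 1.91 in controls. The groups then did not overlap, so RNA shortening cannot be told apart from dehydration in that setting. For the tissue itself, Avp had signals of 1602.6 to 2513.2 in the dehydrated group and 717.4 to 909.7 in controls, and Pomc of 491.3 to 1089.7 and 639.3 to 894.4. Log2 changes were 1.38 for Avp, 0.83 for Oxt, -0.09 for Pomc, and 0.38 and 0.00 for the anterior lobe hormones Gh1 and Prl, of which Avp and Oxt passed (limma adjusted p = 1.36e-06 and 6.08e-06).

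Of the defining phagocyte markers, Aif1, Csf1r and Cd68 were above the filter on average, as were all 3 C1q chains, Lyz2 and Ctss. Ptprc, which encodes the leukocyte phosphatase CD45, was also tested, at 73.6 ± 13.9 and 65.0 ± 4.62 in the dehydrated and control groups (SD, n = 5 each). Cx3cr1, the fractalkine receptor of microglia, was dim, with signals of 5.6 to 31.5 in the dehydrated group and 8.1 to 39.2 in controls. Itgam, the integrin chain CD11b, was dim as well, at 2.8 to 18.4 and 6.0 to 25. The other 3 members below the filter had signals of 6.2 to 15.8 and 2.9 to 21.4 (Cd163, a haemoglobin scavenger receptor), 4.5 to 38 and 15.8 to 24.1 (Trem2, a lipid-sensing receptor) and 0.9 to 13.9 and 9.3 to 23.9 (Ncf1, an oxidase subunit). No direction can be read for these 5.

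Of the 32 tested members, 3 were called higher in the dehydrated group, Cd14, Ctss and Aif1, and 0 were called lower by limma. Over all tested probe sets 2.46% were called, 1.68% higher and 0.784% lower. At an unadjusted p under 0.05, 10 members were higher and 7 lower, against 8.7% and 8.66% of all tested probe sets. These shares, called and unadjusted, are the background for every list counted below. The groups did not overlap in 5 members, all higher in the dehydrated group, Cd14, Ctss, Fcgr2b, Fcgr3a and Cyba, whereas 4.59% of all tested probe sets had no overlap, 2.78% higher and 1.81% lower. The median log2 change of the tested members was 0.08, with 20 positive and 12 negative, beside -0.01 over all tested probe sets.

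**Figure D1:**
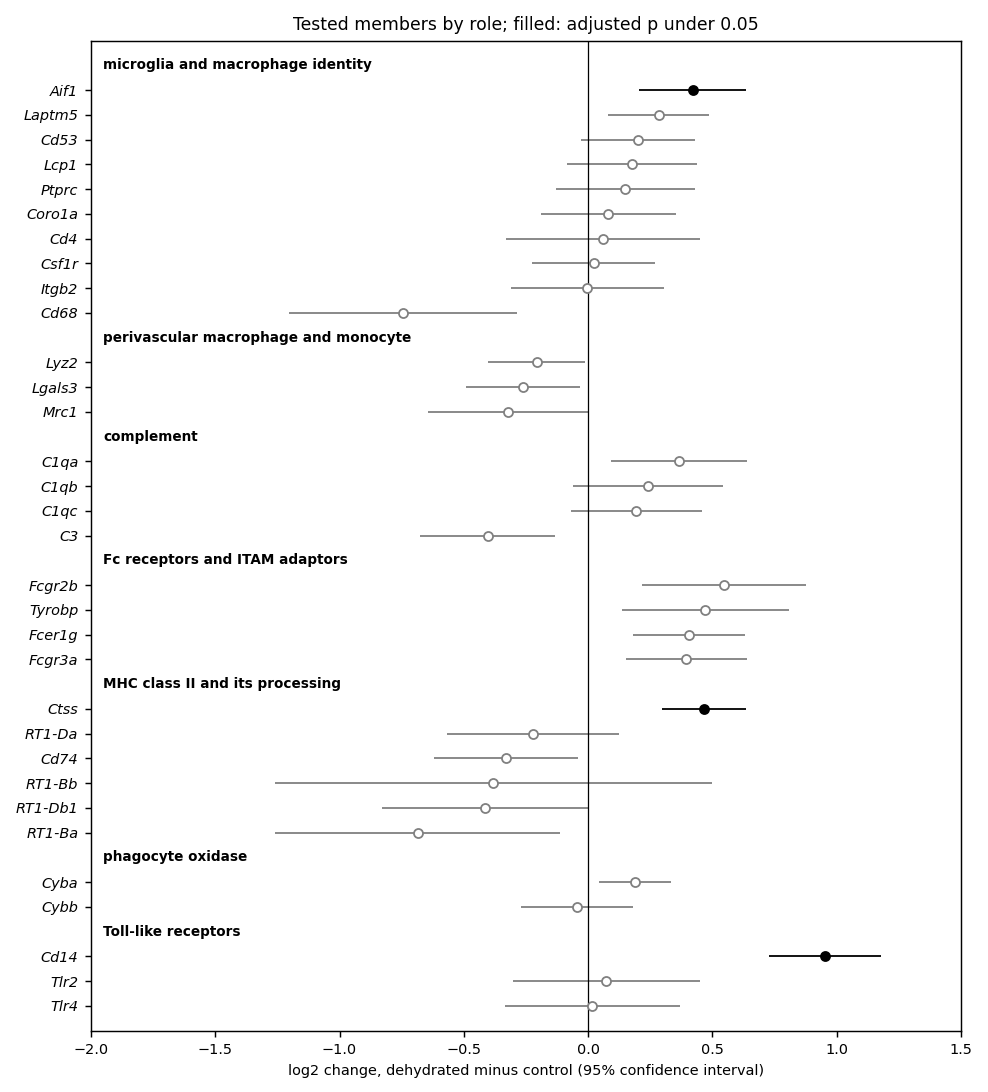
Log2 change (dehydrated minus control) of the 32 tested members with 95% confidence intervals from limma, grouped by role; filled points passed an adjusted p of 0.05. The 4 Fc receptor and adaptor genes all lie above 0 and the 4 class II chains and Cd74 all lie below it, while the 3 filled points are Aif1, Ctss and Cd14.

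Cd14, the co-receptor that hands bacterial lipopolysaccharide to Tlr4, had the largest change of any tested member. Its signals were 170.8, 211.1, 199.7, 160.4 and 167.1 on the 5 dehydrated arrays, against 103.0, 96.0, 85.9, 95.6 and 76.8 on the 5 control arrays. The lowest dehydrated array was thus well above the highest control array. Cd14 rose 1.94-fold on the log2(signal + 5) scale, to a mean of 182 ± 22.2 in the dehydrated group, against 91.5 ± 10.2 in the control group (SD, n = 5 each; log2 change 0.95 ± 0.11 SE, limma adjusted p = 0.000103).

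The Toll-like receptors themselves were dim and showed no such difference. Tlr4, the lipopolysaccharide receptor, had signals of 24.2 to 32.2 in the dehydrated group and 21.7 to 39.1 in controls, with a log2 change of 0.02 and a 95% interval of -0.34 to 0.37. Tlr2, the receptor for bacterial lipoproteins, had 24.5 to 41.2 and 21.5 to 38.1, with a log2 change of 0.07 and an interval of -0.30 to 0.45. Neither interval reached the change of Cd14.

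Of the other Toll-like receptor and cytokine genes, 15 were tested, 1 rose and none fell by limma, and 4 were higher and 1 lower at an unadjusted p under 0.05. The gene that rose was Il1r1, the interleukin-1 receptor, with signals of 165.2, 136.8, 175.5, 158.6 and 133.7 on the dehydrated arrays, against 106.0, 127.4, 101.0, 109.6 and 78.2 on the control arrays. Its log2 change was 0.55 ± 0.12 (SE, limma adjusted p = 0.0231), a call that ended without dehydrated 1 or 3 or control 3 or 5, with no trend on intensity in the fit or with the RNA ratio as a covariate (adjusted p up to 0.0849).

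Among the genes of microglial and macrophage identity, 1 of 10 tested rose and none fell, beside 1.68% and 0.784% of all tested probe sets. At an unadjusted p under 0.05, 2 were higher and 1 lower, beside 8.7% and 8.66%. Aif1, the actin-binding protein IBA1 used to stain microglia, had signals of 280.0, 205.1, 271.2, 286.4 and 236.3 on the dehydrated arrays, against 199.4, 190.6, 162.9, 211.5 and 180.7 on the control arrays. Dehydrated 2 lay below control 4, and the other 4 dehydrated arrays lay above all controls. Its mean was 256 ± 34.3 in the dehydrated group and 189 ± 18.5 in controls (SD, n = 5 each; log2 change 0.42 ± 0.10 SE, limma adjusted p = 0.0375). The call ended without dehydrated 1, 3 or 4 or control 2, 3 or 5, without the filter, without an intensity trend or with the RNA ratio as a covariate (adjusted p 0.0647 to 0.114). Averaging Aif1 with its second, dimmer probe set, which was below the filter, gave an adjusted p of 0.417.

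Csf1r, the receptor for colony-stimulating factor 1 and interleukin-34, had signals of 157.4 to 245.5 in the dehydrated group and 168.7 to 222.7 in controls. Its log2 change was 0.02, with a 95% interval of -0.22 to 0.27, so the groups overlapped throughout. Cd68, a lysosomal glycoprotein of phagocytes, had the most negative change of any tested member. Its signals were 100, 42.5, 38.6, 66.7 and 65.0 on the dehydrated arrays, against 132.6, 95.3, 68.3, 121.9 and 107.2 on the control arrays. Dehydrated 1 lay within the control range and the other 4 lay below all controls. The log2 change of -0.74 ± 0.22 (SE) did not pass (limma adjusted p = 0.081), and it did without dehydrated 1 (log2 change -0.92, adjusted p = 0.0255).

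The other leukocyte genes of this group did not pass. Laptm5, a lysosomal membrane protein of blood-derived cells, had a log2 change of 0.28 (limma adjusted p = 0.137), and its second probe set gave 0.25. The tetraspanin Cd53, the actin-bundling protein Lcp1, Ptprc, the actin-binding protein Coro1a and the co-receptor Cd4, which rat macrophages also carry, had log2 changes between 0.06 and 0.20. Itgb2, the beta chain that pairs with Itgam, had a log2 change of 0.00 with a 95% interval of -0.31 to 0.30.

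**Figure D2:**
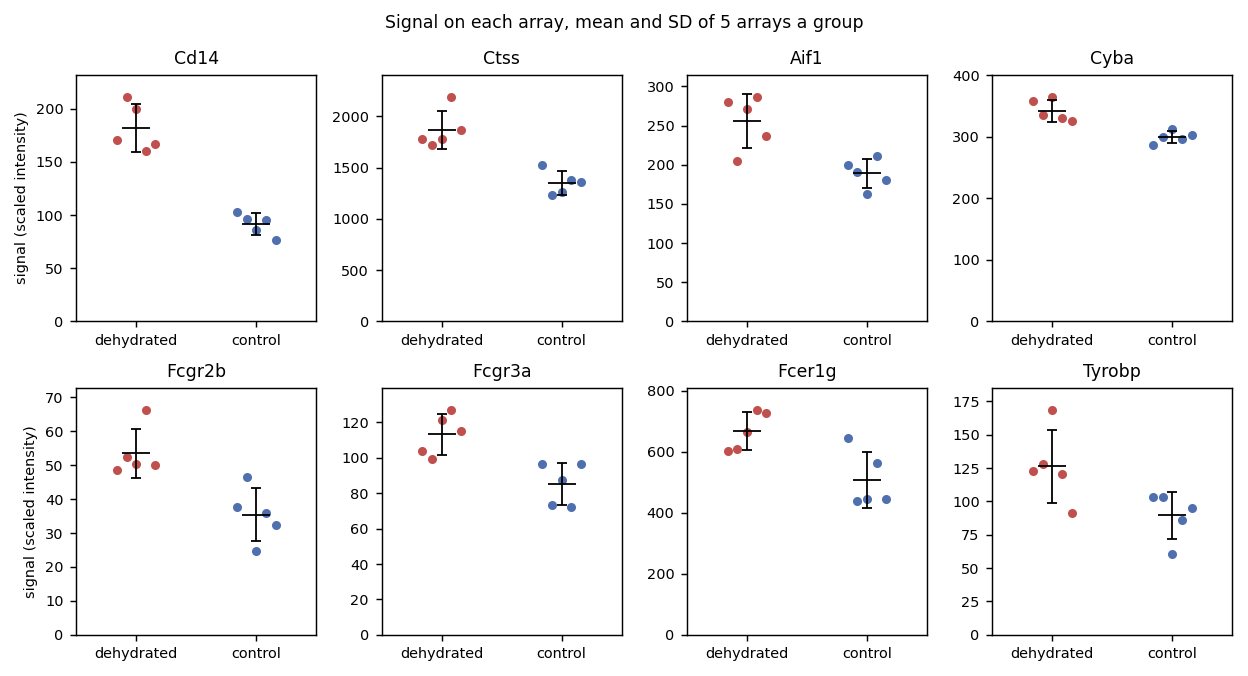
Signal of 8 members on every array (linear scale from 0), dehydrated group on the left and control group on the right; horizontal bars and whiskers are the mean and SD of 5 arrays. Cd14, Ctss, Cyba, Fcgr2b and Fcgr3a show no overlap between groups, whereas 1 dehydrated array of Aif1 lies among the controls.

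Fc receptors bind antibody, and their signalling partners carry or recruit activation motifs. The 4 tested genes of this group all had positive changes, with a median log2 change of 0.44, but none passed by limma, while all 4 were below an unadjusted p of 0.05. Of all tested probe sets, 8.7% were higher at that threshold. Fcgr2b, the inhibitory Fc receptor, had signals of 48.7, 52.4, 50.5, 66.2 and 50 on the dehydrated arrays, against 37.6, 46.5, 24.8, 35.9 and 32.5 on the control arrays. Every dehydrated array lay above every control array, and the log2 change was 0.55 ± 0.16 (SE, limma adjusted p = 0.0739). Fcgr3a, an activating Fc receptor, had 103.6, 99.1, 121.6, 126.9 and 115.0, against 96.7, 73.2, 87.6, 72.1 and 96.4 on the control arrays. Its groups were separated too, by a small gap, with a log2 change of 0.40 ± 0.11 (SE, limma adjusted p = 0.081), and it passed with array weights (log2 change 0.44, adjusted p = 0.0378). Fc receptor genes resemble each other in sequence, so how far their probe sets share signal is uncertain.

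Fcer1g, the signalling chain shared by activating Fc receptors, was at 603.1, 609.9, 664.3, 736.5 and 726.6 on the dehydrated arrays, against 644.7, 437.8, 446.1, 565.0 and 446.0 on the control arrays. Control 1 was the array that overlapped the dehydrated range. The log2 change was 0.40 ± 0.11 (SE, limma adjusted p = 0.0568), and it passed without control 1 (log2 change 0.49, adjusted p = 0.0127), without dehydrated 5 and control 1 together (adjusted p = 0.0103), with array weights (0.0336) or among the brightest 40% of probe sets (0.0446). Tyrobp, the adaptor DAP12 through which Trem2 signals, was at 122.6, 128.1, 168.3, 120.7 and 91.1, against 103.1, 103.5, 60.2, 85.7 and 94.7 on the control arrays. Dehydrated 5 lay inside the control range. Its log2 change of 0.47 ± 0.16 (SE, limma adjusted p = 0.133) passed without dehydrated 5 (log2 change 0.58, adjusted p = 0.0325) and without dehydrated 5 and control 1 together (log2 change 0.63, adjusted p = 0.0248).

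Downstream of these receptors, 13 genes of haematopoietic signalling were tested and none passed by limma, with 3 higher and 0 lower at an unadjusted p under 0.05. The lowest p was that of Blnk, a linker protein of immune receptors, with a log2 change of 0.40 (limma adjusted p = 0.0619) and no overlap between groups. It was called under 5 alternatives, with adjusted p of 0.0459 to 0.0498.

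C1q is built from A, B and C chains and starts the classical complement pathway. The genes of its 3 chains had positive changes that did not pass, of 0.37, 0.24 and 0.19 on the log2 scale. C1qa had signals of 501.3, 383.4, 567.0, 553.7 and 693.1 on the dehydrated arrays, against 363.8, 410.2, 377.2, 399.3 and 516.2 on the control arrays. C1qb had 213.0, 176.9, 252.5, 282.2 and 340.3, against 178.0, 230.1, 187.0, 216.1 and 235.7 on the control arrays. C1qc had 305.8, 205.5, 307.0, 308.9 and 328.5, against 262.5, 238.2, 201.5, 263.6 and 296.6 on the control arrays. In each of the 3 genes dehydrated 2 was the lowest and dehydrated 5 the highest of its group, and control 5 was the highest control. C1qa had an adjusted p of 0.153 and passed without dehydrated 2 (log2 change 0.48, limma adjusted p = 0.0298), with array weights (0.0411) or with the RNA ratio as a covariate (log2 change 0.55, adjusted p = 0.00474).

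C3, the central complement component, had a change in the other direction. Its signals were 219.1, 209.5, 169.5, 221.8 and 304.9 on the dehydrated arrays, against 304.9, 265.6, 247.3, 332.7 and 330.2 on the control arrays. Dehydrated 5 alone reached the control range. The log2 change of -0.40 ± 0.13 (SE) did not pass (limma adjusted p = 0.11), and it passed without dehydrated 5 (log2 change -0.52, adjusted p = 0.0103) and without dehydrated 5 and control 1 together (adjusted p = 0.0179).

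Of the other complement genes, 7 were tested, 1 rose and none fell by limma, and at an unadjusted p under 0.05 the counts were also 1 and 0. The gene that rose was C1s, a serine protease of the C1 complex, with signals of 340.3 to 398.2 in the dehydrated group and 236.9 to 297.9 in controls. Its log2 change was 0.44 ± 0.08 (SE, limma adjusted p = 0.00636), and it passed under all 23 alternatives.

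Of the 6 tested members of antigen presentation by class II, 1 rose and none fell by limma. At an unadjusted p under 0.05, 1 was higher and 3 lower, against 8.7% and 8.66% of all tested probe sets. Ctss, the protease cathepsin S, had signals of 1781.1, 1725.2, 1784.5, 2190.3 and 1871.5 on the dehydrated arrays, against 1525.7, 1231.4, 1262.1, 1377.8 and 1361.7 on the control arrays. All dehydrated arrays lay above all controls. Ctss rose 1.38-fold to a mean of 1871 ± 186 in the dehydrated group, against 1352 ± 116 in the control group (SD, n = 5 each; log2 change 0.47 ± 0.08 SE, limma adjusted p = 0.00427).

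The 4 class II chains and the invariant chain had negative changes without exception, with a median of -0.38, but none passed by limma, and 3 of the 5 were below an unadjusted p of 0.05. Cd74, the invariant chain, had signals of 584.5, 450.3, 532.9, 732.5 and 524.9 on the dehydrated arrays, against 1000.3, 653.8, 698.8, 655.4 and 573.8 on the control arrays. Its log2 change was -0.33 ± 0.14 (SE, limma adjusted p = 0.224). RT1-Da had 706.6, 460.9, 560.0, 800.9 and 553.3, against 1065.5, 727.4, 671.1, 645.1 and 521.7 on the control arrays (log2 change -0.22, 95% interval -0.57 to 0.12). In both genes dehydrated 4 was the highest dehydrated array and control 1 the highest of all, and the groups overlapped. Over the alternatives the log2 change was -0.43 to -0.18 for Cd74 and -0.35 to -0.04 for RT1-Da.

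RT1-Ba had 186.0, 110.7, 122.9, 345.6 and 142.7 on the dehydrated arrays, against 446.1, 167.3, 341.2, 227.1 and 247.7 on the control arrays. With a log2 change of -0.69 ± 0.27 (SE) it did not pass (limma adjusted p = 0.203), and it did without dehydrated 4 (log2 change -0.95, adjusted p = 0.0349). RT1-Db1 had 127.7, 79.8, 111.4, 170.8 and 137.8, against 257.5, 145.7, 160.2, 175.0 and 113.2 on the control arrays (log2 change -0.42, adjusted p = 0.286). Dehydrated 4 and control 1 were again the highest of their groups in both genes. Over the alternatives the log2 change was -0.95 to -0.29 for RT1-Ba and -0.55 to -0.24 for RT1-Db1.

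RT1-Bb and the second probe sets of RT1-Ba and RT1-Db1 ordered the arrays differently. RT1-Bb had 77.3, 66.1, 72.5, 8.0 and 84.6 on the dehydrated arrays, against 66.7, 118.3, 45.9, 74.5 and 50.3 on the control arrays. Its log2 change of -0.38 had a 95% interval of -1.26 to 0.50, and without dehydrated 4 the change was 0.14. The second RT1-Ba probe set had 138.5, 89.4, 121.5, 53.1 and 191.0, against 135.7, 195.7, 116.3, 168.7 and 81.9 on the control arrays. The second RT1-Db1 probe set had 46.8, 60.8, 51.1, 19.8 and 29.9, against 32.1, 79.4, 34.8, 37.5 and 34.4 on the control arrays. In these 3 probe sets dehydrated 4 was the lowest and control 2 the highest of all 10 arrays, whereas dehydrated 4 was the highest dehydrated array in Cd74, RT1-Da and the brighter RT1-Ba and RT1-Db1 probe sets. Class II genes are polymorphic and close in sequence, and how the probes of each set match the animals' alleles was not tested.

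**Figure D3:**
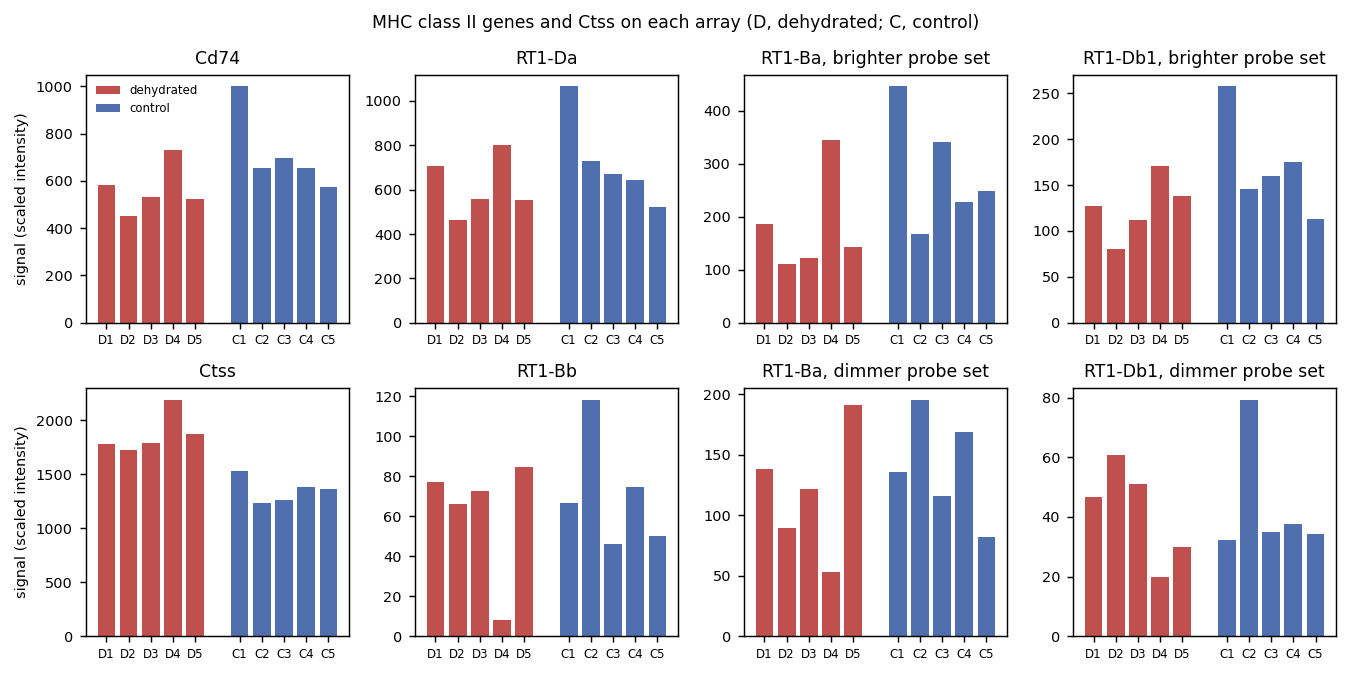
Signal (linear scale from 0) of class II genes and Ctss on each array, dehydrated arrays (D1 to D5) left of control arrays (C1 to C5). Ctss is higher on every dehydrated array, Cd74, RT1-Da and the brighter probe sets peak at D4 and C1, and RT1-Bb and the dimmer probe sets are lowest at D4 and highest at C2.

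Among 11 other tested genes of the class II machinery, 1 rose and none fell by limma, and 3 were higher and 0 lower at an unadjusted p under 0.05. RT1-DMb, a chain of the DM molecule that exchanges peptides on class II, had signals of 151.3 to 196.8 in the dehydrated group and 122.1 to 142.1 in controls, opposite in direction to the class II chains. Its log2 change was 0.41 ± 0.09 (SE, limma adjusted p = 0.023). The call ended without dehydrated 1 or 3 or control 2, 3 or 4, or with no trend on intensity in the fit (adjusted p up to 0.0834).

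Of 17 tested genes of MHC class I presentation, 1 rose and 1 fell by limma. At an unadjusted p under 0.05, 8 were higher and 1 lower, against 8.7% and 8.66% of all tested probe sets. B2m, the light chain of class I molecules, had a log2 change of 0.31 (limma adjusted p = 0.0283), which was 0.07 after quantile normalization (adjusted p = 0.641) and ended under 13 of 23 alternatives. Pdia3, a disulfide isomerase of the class I loading complex that also serves protein folding at large, fell by 0.32 on the log2 scale (adjusted p = 0.0162). Pdia3 did not pass without dehydrated 3, without control 4, without an intensity trend or with its probe sets averaged (log2 change -0.14, adjusted p = 0.373). Among 14 lysosomal genes, Ctsh, the protease cathepsin H, rose by 0.34 (adjusted p = 0.0175), and no other passed. Of these 14, 6 were higher and 2 lower at an unadjusted p under 0.05, against the same 8.7% and 8.66%. The call of Ctsh ended without dehydrated 1 or control 2, with no trend on intensity in the fit or with the RNA ratio as a covariate (adjusted p up to 0.0802).

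The phagocyte oxidase makes superoxide through a membrane pair, Cybb and Cyba, and cytosolic subunits. Cyba had signals of 359.2, 335.0, 365.0, 330.3 and 325.5 on the dehydrated arrays, against 287.6, 299.6, 313.0, 297.4 and 303.3 on the control arrays. The groups did not overlap, yet the difference was small, with a log2 change of 0.19 ± 0.07 (SE, limma adjusted p = 0.164). Cybb, the catalytic subunit, had 126.1 to 146.2 in the dehydrated group and 121.5 to 178.6 in controls, with a log2 change of -0.05 and a 95% interval of -0.27 to 0.18. Its dimmer probe set gave -0.40 (adjusted p = 0.273). None of 3 other tested oxidase genes passed by limma, and none was below an unadjusted p of 0.05. Rac2, a small GTPase of the oxidase, had the lowest p of these, with a log2 change of 0.22 (adjusted p = 0.295).

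Genes of macrophages along vessels and of monocytes had negative changes that did not pass by limma in all 3 tested cases, 2 of them below an unadjusted p of 0.05. Mrc1, the mannose receptor of perivascular macrophages, had signals of 48.7 to 81.4 in the dehydrated group and 60 to 98.1 in controls (log2 change -0.32, 95% interval -0.64 to 0.00). Lyz2, lysozyme, had 807.0 to 1025.5 and 966.1 to 1272.6 (log2 change -0.21, interval -0.40 to -0.01). Lgals3, galectin-3, had 174.7 to 246.4 and 225.5 to 304.7 (log2 change -0.26, interval -0.49 to -0.03). In Lyz2 and Lgals3 control 1 was the highest array.

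Among 25 other tested genes of microglia and macrophages, 2 rose and none fell by limma, beside 1.68% and 0.784% of all tested probe sets. At an unadjusted p under 0.05, 8 were higher and 2 lower, beside 8.7% and 8.66%. P2ry12, the purinergic receptor of resting microglia, had signals of 243.6, 198.0, 255.9, 255.2 and 262.5 on the dehydrated arrays, against 146.3, 171.5, 141.1, 146.5 and 124.5 on the control arrays. Its groups were separated by a clear gap, with a log2 change of 0.72 ± 0.10 (SE, limma adjusted p = 0.000785). It passed under 22 of 23 alternatives, the exception being averaged probe sets (adjusted p = 0.0508). Mpeg1, the perforin of macrophages, had a log2 change of 0.35 (adjusted p = 0.0417), a call that ended under 13 of 23 alternatives (adjusted p up to 0.506). A further list held Csf1r and Cx3cr1 ligands together with other growth factors and growth factor receptors. None of its 6 tested genes passed by limma or was below an unadjusted p of 0.05. Csf2ra, a receptor chain for granulocyte-macrophage colony-stimulating factor, had the lowest p of that list, with a log2 change of -0.42 (adjusted p = 0.447).

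Markers of other immune cells were mostly below the filter. Of 17 listed markers of T and NK cells 3 were tested, of 9 of B cells 2, of 11 of mast cells 1 and of 12 of neutrophils none, and none of these 6 passed by limma, although 1 T and NK marker was higher and 1 lower at an unadjusted p under 0.05. Summed signals of these lists had ranges of 269.9 to 305.2 and 264.8 to 325.6 (T and NK cells), 68.3 to 113.3 and 75.3 to 107.3 (B cells), 91.3 to 127.5 and 88.1 to 141.5 (mast cells) and 34.9 to 73.7 and 46.6 to 57.2 (neutrophils) in the dehydrated and control groups. The genes of lowest p were Cd247, the T cell receptor zeta chain (log2 change -0.38, adjusted p = 0.263, no overlap between groups), Cd22, a B cell lectin (0.13, adjusted p = 0.757), and Cpa3, the mast cell carboxypeptidase (-0.31, adjusted p = 0.392). Markers of blood were 2 tested genes, of which neither passed, although 1 was higher at an unadjusted p under 0.05. Hbb, a globin gene, had a log2 change of 0.24 (adjusted p = 0.191), and the list summed to 2833.4 to 3576.3 in the dehydrated group and 2384.9 to 3054.7 in controls.

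Some markers of other cells of the lobe also passed. Of the 12 markers of endothelium and pericytes that were tested, 6 were higher and 0 lower at an unadjusted p under 0.05. By adjusted p, 4 rose, and their list summed to 1610.4 to 1943.1 in the dehydrated group and 1092.2 to 1456.3 in controls. They were Flt1 and Kdr, receptors for vascular endothelial growth factor (log2 change 0.90 and 0.63, limma adjusted p = 0.0151 and 0.00441), the pericyte regulator Rgs5 (0.72, adjusted p = 0.000733) and the endothelial sialomucin Emcn (0.51, adjusted p = 0.00445). With probe sets averaged, Flt1 was at 0.19 (adjusted p = 0.584) and Kdr at 0.08 (adjusted p = 0.862), so 2 passed, and Flt1 did not pass without dehydrated 3 (adjusted p = 0.0589). Of 13 tested pituicyte and astroglial markers, 4 were higher and 1 lower at an unadjusted p under 0.05. The list's median log2 change was 0.07, with 9 positive and 4 negative. By adjusted p, 3 rose, with overlapping sums of 7919.3 to 9048.0 and 7222.8 to 8126.9. They were the glial filament Gfap (log2 change 2.38, limma adjusted p = 5.3e-06), the transcription factor Lhx2 (0.39, adjusted p = 0.00564) and the glutamate transporter Slc1a3 (0.36, adjusted p = 0.00694), which was at 0.04 with probe sets averaged (adjusted p = 0.919) and did not pass without a trend on intensity (adjusted p = 0.0509). Of 9 melanotroph markers 1 fell, the prohormone convertase Pcsk2 (log2 change -0.88, adjusted p = 0.00219), and the sums of 10939.6 to 12712.2 and 12210.1 to 13482.0 overlapped. At an unadjusted p under 0.05, 0 of the 9 were higher and 3 lower. The count of melanotroph markers that fell was 3 after quantile normalization, after cyclic loess, without dehydrated 5 or without dehydrated 5 and control 1 together, and 2 with array weights, among the brightest 40% of probe sets or without control 1. Of 7 tested anterior lobe markers 1 fell, Fshb, the beta chain of follicle-stimulating hormone (log2 change -0.86, adjusted p = 0.00507), while the list's median was 0.26 and its sums of 4880.1 to 9483.6 and 2634.3 to 8039.3 overlapped. At an unadjusted p under 0.05, 1 of the 7 was higher and 2 lower. Without dehydrated 1, 1 anterior lobe marker was also called higher. No marker in these lists was listed at 0 on any array. The part of these cell types, of RNA shortening and of any single array in the values of the macrophage genes was not tested beyond the alternatives named beside them.

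**Figure D4:**
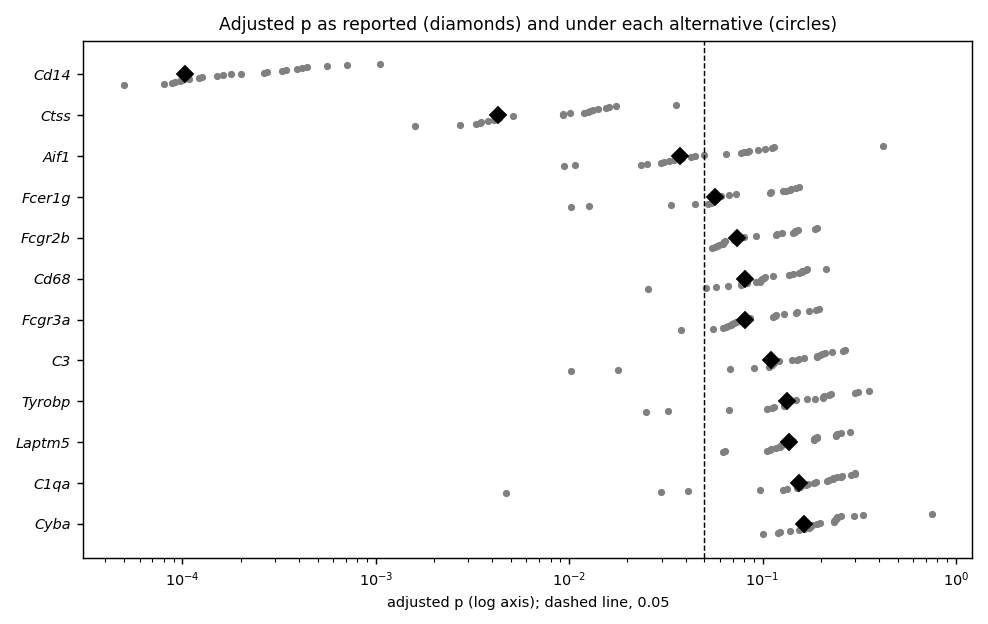
Adjusted p (log axis) of the 12 tested members with the lowest values, as reported (diamonds) and under each alternative (circles), with 0.05 as a dashed line. All circles of Cd14 and Ctss lie left of the line, those of Aif1 lie on both sides, and Fcer1g, Cd68, Fcgr3a, C3, Tyrobp and C1qa cross it under 1 to 4 alternatives.

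Cd14 and Ctss passed under all 23 alternatives. The log2 change of Cd14 was 0.84 to 1.02 over them (limma adjusted p 4.97e-05 to 0.00105), and that of Ctss was 0.38 to 0.51 (adjusted p 0.00159 to 0.0356).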

How the data were processed

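The deposited table holds a linear intensity for every probe set on each array. Arrays were read with GCOS 1.2 per the submitters' processing notes, with algorithm and scaling not given in the sources used here. The values show a mean trimmed by 2% at each end of about 100 on every array, so the authors had scaled the arrays to each other, and a change is relative to the average probe set. Detection calls were not used here.

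Of 31099 probe sets, 57 controls were left out. Of the remaining 31042, the platform annotation gives 1 symbol to 20826, several to 436 and none to 9780. Gene IDs matched to RefSeq (GRCr8) changed 0 symbols. Values were taken as log2(signal + 5), the brightest 60% of probe sets by mean over all arrays were kept (18625, from a mean near 22.4 in signal), and limma 3.58.1 (R 4.3.3) tested the groups, two-sided, with a trend on intensity. P was adjusted by Benjamini-Hochberg over all kept probe sets. The steps were tested on simulated data. The labels number no replicates, so arrays were numbered in deposition order as names alone. P-values refer to the spread between pools of animals.

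The members and lists were chosen with earlier results of these data known, so no list was tested. Named were all members and, from each other list, up to 4 called genes by size or, with none called, that of lowest p, and tissue markers. For the X box and interferon response motif, spacer positions could hold any base. Alternatives covered normalization, pseudocount, filter, variance model, array weights, RNA ratio, averaged probe sets and left-out arrays.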

Additional observations from a re-analysis of the deposited data

Results flagged for a closer look

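Each group of 5 arrays was searched, for each tested member, for 1 array set apart from the others on the log2 scale by Dixon's ratio, the gap to the nearest array over the whole range. Of 64 such groups 6 had one, where chance alone gives about 1 in 20. The groups share the same arrays and are not independent, so no excess over chance can be read from this count. In the dehydrated group RT1-Bb was at 8.0 on array 4, against 66.1 to 84.6 on the others (ratio 0.88), C1qc was at 205.5 on array 2, against 305.8 to 328.5 (0.847), Fcgr2b was at 66.2 on array 4, against 48.7 to 52.4 (0.764), and Itgb2 was at 39.3 on array 4, against 52.7 to 59.1 (0.715). In the control group Tlr2 was at 21.5 on array 3, against 33.8 to 38.1 on the others (0.784), and Lgals3 was at 304.7 on array 1, against 225.5 to 244.8 (0.728). The causes were not tested.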

How the results depend on the processing

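No paired analysis was made, because the labels give no pairing between dehydrated and control pools. Of the 32 tested members, 24 kept their side of the threshold under every alternative that tested them, of 23, and 25 kept their sign. Members whose calls changed have those settings beside them in the report, and the causes were not tested. Members called higher numbered 2 to 4 and those called lower 0 to 1 when 1 array at a time was left out, and the median change of members was 0.06 to 0.13. Members called lower numbered 1 without dehydrated 1 (Cd68), 4 (RT1-Ba) or 5 (C3). With array weights 6 members were higher, and without dehydrated 5 and control 1 together 5 were higher and 1 lower. Calls over all probe sets numbered 458, and 218 to 1156 with 1 array left out: with dehydrated 1, 3 or 5 left out they numbered 301, 218 or 1156, and with control 2, 3, 4 or 5 left out 290, 288, 299 or 304. They numbered 240 without an intensity trend, 730 with array weights and 1398 without dehydrated 5 and control 1 together. As scaled by the authors 312 were higher and 146 lower (68.1% higher), beside 456 and 113 (80.1%) after median centring, 651 and 505 (56.3%) without dehydrated 5 and 667 and 731 (47.7%) without dehydrated 5 and control 1. With both of these arrays left out, the RNA ratios of the groups did not overlap, so RNA shortening cannot be told apart from dehydration there. No gene with a call changed direction. Without detection calls, signal over background limits what can be said of the dim members.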

Other observations

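Arrays of 1 group differed from each other along the members' roles. As the mean log2 deviation of each gene from its own mean over all arrays, the class II chains with Cd74 stood at 0.01, -0.50, -0.25, -0.16 and -0.12 on dehydrated arrays 1 to 5, against 0.69, 0.18, 0.15, 0.15 and -0.15 on control arrays 1 to 5. The value of dehydrated 4 includes RT1-Bb, at 8.0 there against 66.1 to 84.6 on the other dehydrated arrays. Cd74, RT1-Da, RT1-Ba and RT1-Db1 each had their highest dehydrated signal on that array. The 3 C1q chains stood at 0.07, -0.33, 0.21, 0.25 and 0.48 on the dehydrated arrays, against -0.24, -0.11, -0.33, -0.10 and 0.11 on the control arrays. The 4 tested Fc receptor and adaptor genes stood at 0.13, 0.16, 0.34, 0.37 and 0.14, against -0.01, -0.18, -0.49, -0.24 and -0.22, with every dehydrated array above every control array. Control 1 held the highest control signal in 16 of the 32 tested members, and dehydrated 2 the lowest dehydrated signal in 14. Neither these counts nor the separation of the 4 Fc receptor and adaptor genes was assessed over all tested probe sets. Whether they are particular to the members is not known.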
